A study of Mus musculus with 4 samples.

Results

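The genes described here encode splicing proteins of the SR and hnRNP families, together with 10 further splicing regulators named one by one. Members were taken by symbol from the platform annotation: every gene whose single annotated symbol starts with Srsf (10 genes) or Hnrnp (19 genes), plus Son, Srrm1, Srrm2, Rbm20, Rbm24, Rbfox1, Rbfox2, Mbnl1, Mbnl2 and Celf1. This gave 39 of the 18193 genes with a single symbol, measured by 135 probe sets, and all 135 entered the comparisons. A probe set is a group of short oligonucleotides on the array that together report 1 stretch of a transcript, so that several probe sets can read different stretches or isoforms of the same gene. Of the members, 10 had 1 probe set and 29 had several, with 7 each for 5 of them. A further 7 probe sets whose annotation lists several symbols, among them an Hnrnp symbol, were left out; they carry Hnrnpa3 and Hnrnpa1 together with near-identical copies, so that the remaining Hnrnpa1 values are uncertain in the same way.

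The study measured total RNA from mouse hearts on 4 Affymetrix expression arrays, 1 per sample. NTg 1 and NTg 2 were labelled wild type, and Tg-Sirt1 1 and Tg-Sirt1 2 were labelled as coming from mice transgenic for Sirt1, a protein deacetylase. All mice received pentobarbital at 120 mg/kg, and hearts were frozen in liquid nitrogen. The sources used here give no age, sex, strain, transgene promoter or number of lines, nor do they state that each array came from a separate RNA preparation.

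SR proteins are RNA-binding proteins with a domain rich in arginine and serine. They bind enhancer sequences in exons and help the spliceosome, the machine that removes introns, to recognise nearby splice sites. Proteins of the hnRNP class coat newly made transcripts, and many of them weaken or block the use of the sites they bind. Further regulators also act in heart muscle. RBM20 controls the exons of titin, MBNL proteins and CELF1 act against each other as the heart matures, and RBFOX proteins bind introns beside muscle exons. Many genes of both families also splice their own transcripts into several isoforms, including ones with alternative ends.

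Values are the deposited log2 values, on which a difference of 1 is a 2-fold difference. Where 4 values follow each other they stand in the order NTg 1, NTg 2, Tg-Sirt1 1, Tg-Sirt1 2, and where 3 are set against 1, the last is Tg-Sirt1 2. A fact about the arrays limits every comparison. NTg 1 and the array labelled Tg-Sirt1 1 gave nearly the same value throughout (r = 0.9993 over the 45037 probe sets of the pair, points that are no replicates of each other, and 0 probe sets over 2-fold apart), although their labels differ. The other 3 arrays against which Tg-Sirt1 2 is set below therefore hold little more than 2 separate readings, and the comparison by label sets 1 of these readings on both sides.

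Between the labels, no member passed the test. In limma, with Benjamini-Hochberg adjustment over all 45037 probe sets, 0 of 135 member probe sets had an adjusted p under 0.05 (lowest 0.996), and 0 had an unadjusted p under 0.05. Over all probe sets the test called 0%, with 28 at an unadjusted p under 0.05. The unadjusted counts depended on single arrays: they were 17 members and 4087 probe sets without NTg 1, and 11 members and 2085 probe sets without Tg-Sirt1 1, with 0 adjusted calls in both. With the near-identical pair counted once, under either label, the unadjusted counts rose as well, over all probe sets and not only among members. These fits leave 1 array on one side, which is assumed to vary like the others. The lowest p among members was that of a Hnrnpd probe set, 1457568_at, which read 7.26, 6.84, 7.33 and 8.07. Tg-Sirt1 2 was high, and the array labelled Tg-Sirt1 1 lay with NTg 1. Its log2 fold change, Tg-Sirt1 minus NTg, was 0.65 with a 95% confidence interval from -0.10 to 1.40 (limma unadjusted p = 0.0771, adjusted p = 0.996). Hnrnpd encodes AUF1, which binds AU-rich elements in messenger RNA. The median log2 fold change over the 135 member probe sets was 0.065, against -0.015 over all probe sets.

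Taking for each member its brightest probe set, the one with the highest mean over the 4 arrays, the 2 Tg-Sirt1 values lay wholly above both NTg values for 10 of 39 genes (25.6%), against 11.4% of all genes, and wholly below them for 3 (7.69%), against 9.3%. The 10 were Celf1, Hnrnpa0, Hnrnpab, Hnrnpc, Hnrnpdl, Hnrnph2, Hnrnpr, Rbfox1, Rbm20 and Srrm1, and the 3 were Hnrnpf, Hnrnpul1 and Son. Rbm20, the titin splicing regulator, shows how small the margin was. Its only probe set read 11.07, 10.76, 11.09 and 11.23. The means were 10.91 ± 0.22 (SD, n = 2) in NTg and 11.16 ± 0.10 (SD, n = 2) in Tg-Sirt1, with a log2 fold change of 0.25 (95% confidence interval -0.17 to 0.66, limma adjusted p = 0.996). NTg 1 and Tg-Sirt1 1 differed by 0.02, and the distance came from NTg 2 being low and Tg-Sirt1 2 being high.

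On Tg-Sirt1 2 the probe sets of single members lay far apart. On most members the brightest probe set read slightly above the other arrays, while single probe sets of Srrm2, Mbnl2, Rbm24, Rbfox2, Celf1, Hnrnpl and Hnrnpab read far below them, in several cases beside a sister probe set of the same gene that was higher. Differences are given as Tg-Sirt1 2 minus the mean of the other 3 arrays. A probe set is counted as lower or higher when Tg-Sirt1 2 lay at least 0.5 log2 units beyond all of the other 3. With 1 array on one side there is no test, and these values describe that array, not the transgene.

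Among the 39 brightest probe sets, 29 read higher on Tg-Sirt1 2 and 10 lower, with a median difference of 0.16. Over the brightest probe sets of all 18193 genes, 56.3% read higher and the median was 0.03. Without NTg 2 in the reference the members' median was 0.095, since NTg 2 was itself low for most members. None of the 39 was higher by the 0.5 rule, against 1.81% of all genes. By the same rule 4 of 39 (10.3%) were lower, against 1.37% of all genes: Srrm2, Rbfox2, Hnrnpl and Son. At 1 log2 unit instead of 0.5 only Srrm2 was left among these brightest probe sets.

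The 96 other probe sets of the members had a median difference of -0.01, with 47 higher and 49 lower. Of these, 8 (8.33%) were lower by the 0.5 rule and 2 (2.08%) were higher, against 4.94% and 1.93% of the other probe sets of all genes. Over brightest and other probe sets together, 12 of 135 (8.89%) were lower and 2 (1.48%) higher, against 2.96% and 1.76% of all 45037 probe sets. The parts of the list were unlike in this. The 10 genes named one by one held 10 of the 12 lower probe sets, out of their 44 (22.7%). Srsf and Hnrnp genes together held 2 of 91 (2.2%), near the share of all probe sets. Members were chosen with earlier results of these data known, so the share of the 10 named genes only describes them and was not tested. Members are brighter than most genes, and 115 of their 135 probe sets had a mean above the median probe set (6.25). Within that brighter range 11 of 115 member probe sets (9.57%) were lower and 1 (0.87%) was higher, against 4.72% and 2.39% of all probe sets in it. The members also have more probe sets per gene (3.46) than genes in general (1.92), so that a member has more probe sets that can differ from each other.

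**Figure D1:**
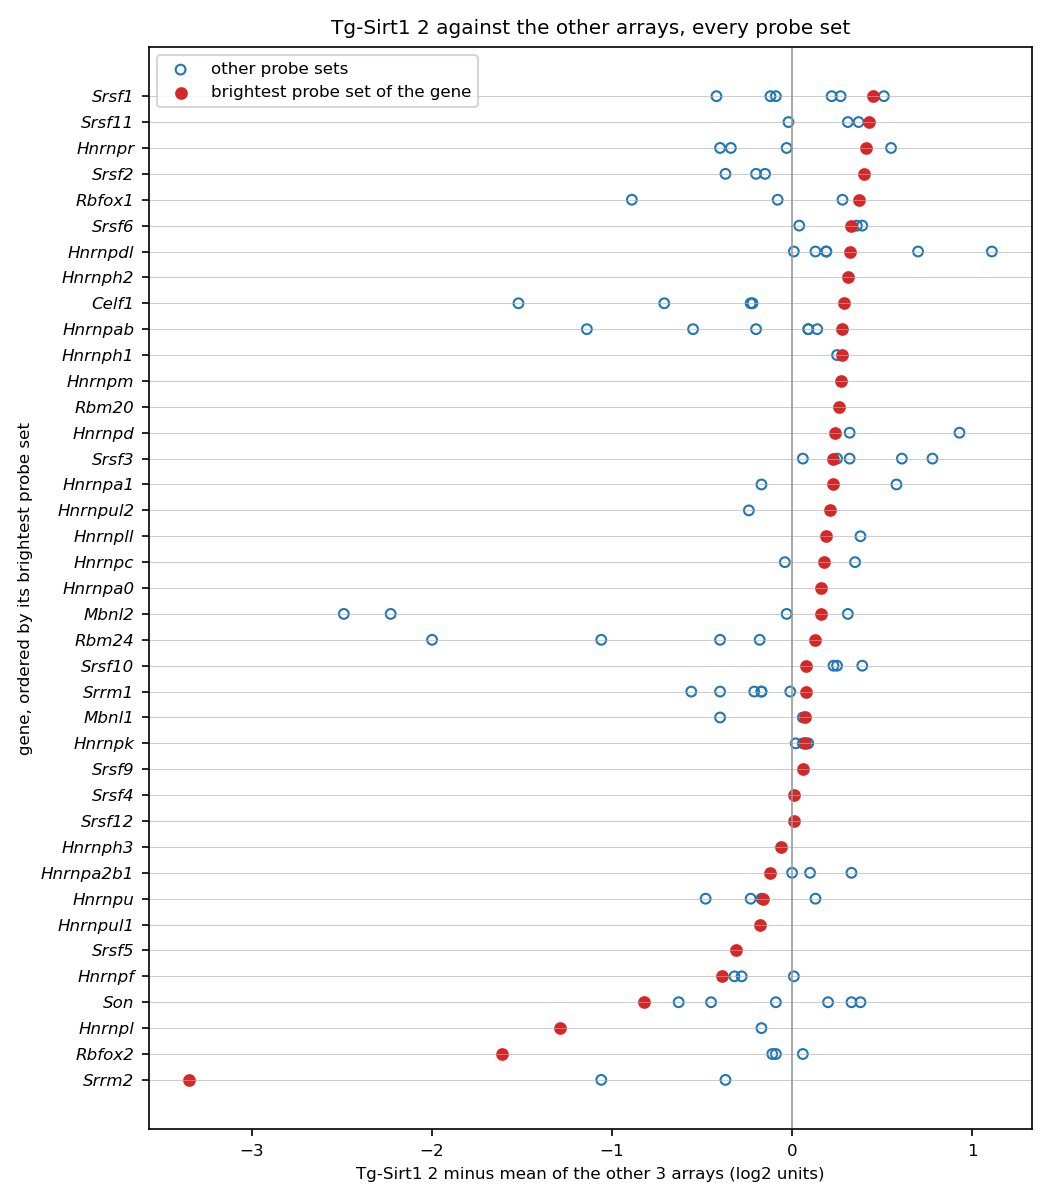
Difference between Tg-Sirt1 2 and the mean of the other 3 arrays (x axis, log2 units) for all 135 probe sets of the 39 genes (y axis, ordered by the brightest probe set). Filled red points are brightest probe sets, from -3.35 for Srrm2 to 0.45 for Srsf1, and open blue points are the other probe sets, from -2.49 for Mbnl2 to 1.11 for Hnrnpdl.

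The Srsf genes, which encode the SR proteins proper, had no probe set past the 0.5 rule in either direction. Their 10 brightest probe sets differed by -0.31 to 0.45, with 9 higher, and their 23 others by -0.42 to 0.78, with 16 higher. Srsf1, the founding SR protein, read 9.24, 9.20, 9.21 and 9.67 at its brightest probe set, 0.43 above the highest of the other arrays and just short of the 0.5 rule. A further 3 Srsf1 probe sets (1428100_at, 1430982_at and 1457136_at) were highest on Tg-Sirt1 2 as well, whereas 1452430_s_at read 8.60, 7.80, 8.59 and 7.91. The probe sets of Srsf1 therefore gave no single direction. Srsf2, which also acts in transcription elongation, read 10.92, 10.48 and 10.83 on the other arrays and 11.14 on Tg-Sirt1 2 at its brightest probe set, but its remaining 3 probe sets differed by -0.37 to -0.15.

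Srsf3, the smallest of the canonical SR proteins, was more uniform. All 6 of its probe sets differed by 0.06 or more in the same direction, and 4 of them were highest on Tg-Sirt1 2. Probe set 1416151_at read 7.24, 6.43, 7.15 and 7.72, just short of the 0.5 rule at 0.48 above the highest of the others. The brightest Srsf3 probe set read 9.95, 9.57, 9.95 and 10.05. In both, NTg 2 lay farther below the near-identical pair than Tg-Sirt1 2 lay above it. Srsf6, Srsf10 and Srsf11 were also higher at 3 or more of their 4 probe sets each, by at most 0.43. Srsf5, with 1 probe set, was the single Srsf gene whose brightest probe set read lower. It gave 11.66 and 11.68 on the near-identical pair, 11.05 on NTg 2 and 11.15 on Tg-Sirt1 2, so that both remaining arrays lay together below the pair. Srsf12 was the dimmest member, at 3.18 to 3.43, below the median probe set.

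The 19 Hnrnp genes had 58 probe sets, of which 2 were lower and 2 higher by the 0.5 rule. Each is 3.45%, near the 2.96% and 1.76% of all probe sets, so that these counts do not set the family apart. Their brightest probe sets differed by -1.29 to 0.41 with a median of 0.19, and 13 of 19 were higher. Both higher ones belong to relatives that bind AU-rich RNA. The Hnrnpd probe set described above differed by 0.93, and Hnrnpdl probe set 1428224_at read 5.08, 4.77 and 5.07 on the other 3 arrays and 6.08 on Tg-Sirt1 2, a difference of 1.11. In both genes the brightest probe set differed less. That of Hnrnpd differed by 0.24. The brightest of Hnrnpdl read 11.90, 11.69 and 11.93 on the other arrays and 12.16 on Tg-Sirt1 2, and all 7 of its probe sets differed by 0.01 or more in the same direction.

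Hnrnpl, whose protein binds CA-rich RNA, and Hnrnpab, which binds RNA and promoter DNA, held the 2 lower ones. Hnrnpl probe set 1424101_at read 7.98, 7.25, 8.04 and 6.47, lowest on Tg-Sirt1 2 and next lowest on NTg 2. The second Hnrnpl probe set, 1445594_at, read 6.94 on Tg-Sirt1 2 against 7.01 to 7.30, a difference of -0.17 in place of -1.29. In Hnrnpab the direction depended on the probe set. The brightest read 11.03 on Tg-Sirt1 2 against 10.63 to 10.83, while 1426114_at read 9.20 against 10.20 to 10.41, and the other 5 differed by -0.55 to 0.14.

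Of the textbook members, Hnrnpa1 was slightly higher and Hnrnpu slightly lower on Tg-Sirt1 2. Hnrnpa1, a repressor of exon use, read 8.92, 8.75 and 8.81 on the other arrays and 9.06 on Tg-Sirt1 2 at its brightest probe set, and 1436549_a_at read 7.44, 7.84 and 7.47 against 8.16, while the dimmest differed by -0.17. Hnrnpu, a nuclear scaffold protein required in the mouse heart, read 10.82, 10.63 and 10.82 against 10.60, and 4 of its 5 probe sets were lowest on Tg-Sirt1 2. Hnrnpf, which binds G-rich RNA, was lower at 3 of 4 probe sets, by -0.39 to -0.28, and 0.01 higher at the fourth. Hnrnpr held probe sets beyond the other arrays in both directions, 1437526_x_at at 9.62 against 8.94 to 9.23 and 1438807_at at 5.91 against 6.27 to 6.33. Hnrnpk, with 4 probe sets, differed by 0.02 to 0.09, the narrowest spread among members with at least 4.

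Son and the Srrm genes encode large proteins of nuclear speckles, the bodies in which splicing factors gather. Srrm2, a scaffold of these bodies, held the most extreme value of all members. Its brightest probe set, 1438688_at, read 9.96, 9.55, 9.96 and 6.47. Tg-Sirt1 2 was 10.2-fold below the mean of the other arrays there, a difference of -3.35, which was the third lowest among all 45037 probe sets and the lowest among the brightest probe sets of all genes. A second Srrm2 probe set, 1427902_at, read 8.92, 9.07, 8.89 and 8.59, a difference of -0.37, and the third, 1437638_at, read 6.55, 6.12, 6.63 and 5.37, a difference of -1.06. All 3 were lowest on Tg-Sirt1 2, but the amounts had little in common. Between the labels, 1438688_at had a mean of 9.76 ± 0.29 (SD, n = 2) in NTg and 8.21 ± 2.47 (SD, n = 2) in Tg-Sirt1, so the spread within Tg-Sirt1 exceeded the difference (log2 fold change -1.54, 95% confidence interval -4.37 to 1.29, limma adjusted p = 0.996).

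Son was mixed across its 7 probe sets. The brightest, 1420952_at, read 10.85, 11.09, 10.82 and 10.10, lower on Tg-Sirt1 2 by the 0.5 rule with a difference of -0.82. Among the others 3 were highest on that array, by 0.14 to 0.35 above the next, and 3 more differed by -0.63 to -0.09. Only Son and Hnrnpr had probe sets at least 0.3 beyond all other arrays in both directions, 2 of the 29 members with several probe sets (6.9%), against 3.21% of all 9010 genes with several. Srrm1, a coactivator that bridges factors on the exon, was close to level at its brightest probe set, which read 9.79, 9.70 and 9.81 on the other arrays and 9.85 on Tg-Sirt1 2. The probe set 1420935_a_at of the same gene read 8.04, 7.96, 8.0 and 7.44, and all 6 dimmer Srrm1 probe sets differed by -0.56 to -0.01.

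**Figure D2:**
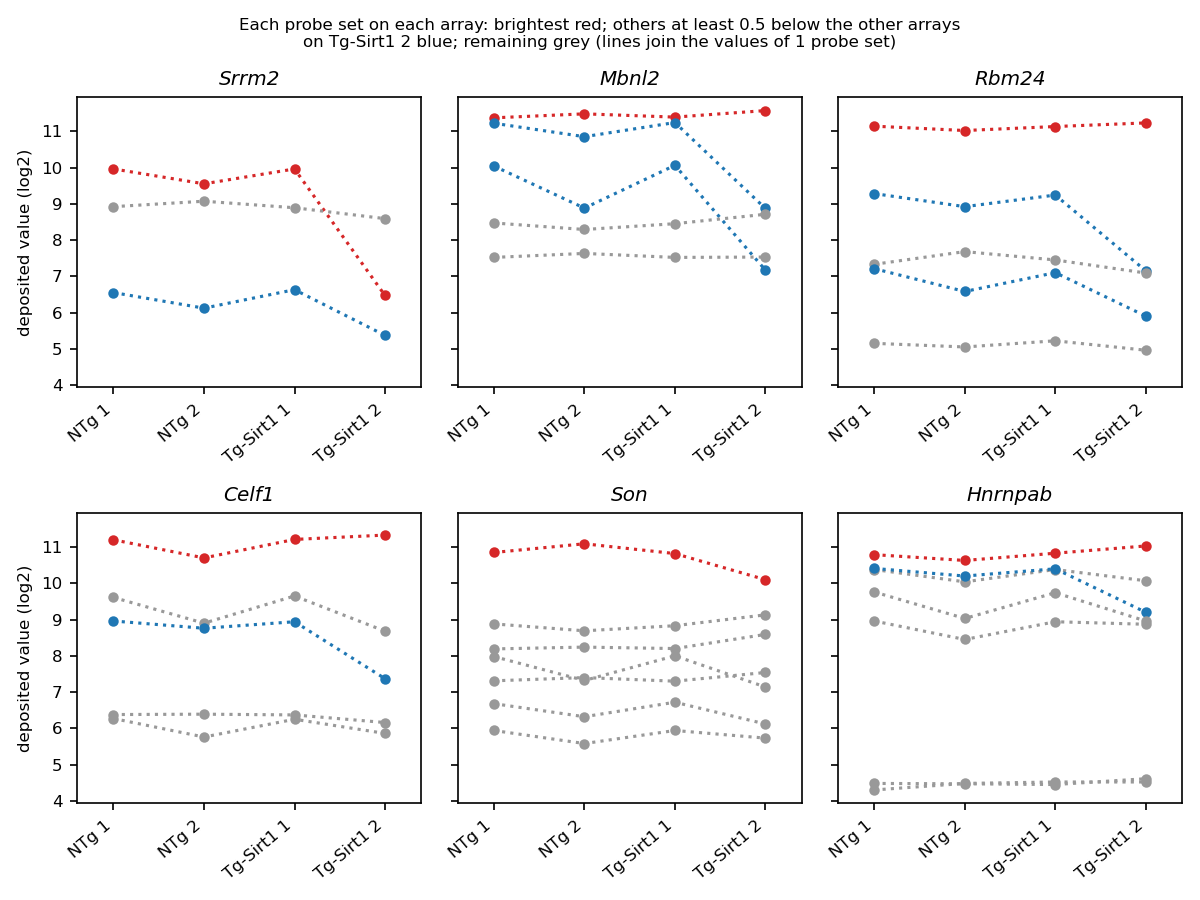
Deposited log2 value (y axis) of each probe set on each of the 4 arrays (x axis) for Srrm2, Mbnl2, Rbm24, Celf1, Son and Hnrnpab; dotted lines join the values of 1 probe set and imply no order of the arrays. Red is the brightest probe set, blue marks others at least 0.5 below the other 3 arrays on Tg-Sirt1 2 and grey the rest; in Mbnl2 2 blue probe sets read 8.87 and 7.17 there while the red one reads 11.57.

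Among the muscle splicing regulators, differences ranged over more than 1 log2 unit between the probe sets of Mbnl2, Rbm24, Celf1, Rbfox1 and Rbfox2. The same held for Srrm2, Son, Hnrnpab, Hnrnpl and Hnrnpdl. Mbnl2, a muscleblind protein that promotes adult exon choices, read 11.37, 11.48, 11.39 and 11.57 at its brightest probe set. Its next, 1455827_at, read 11.22, 10.85, 11.24 and 8.87, and 1436858_at read 10.04, 8.88, 10.06 and 7.17. These were 4.7-fold and 5.62-fold below the mean of the other arrays. Both were designed from the same sequence record. The remaining 2 Mbnl2 probe sets differed by 0.31 and -0.03. Mbnl1, the main muscleblind gene of adult muscle, showed nothing of this size: its brightest probe set read 11.83, 11.49 and 11.84 on the other arrays and 11.79 on Tg-Sirt1 2, and 1457924_at read 6.36 against 6.70 to 6.81.

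Rbm24, an RNA-binding protein needed for sarcomere assembly in the heart, followed the pattern of Mbnl2. The brightest of its 5 probe sets read 11.14, 11.02 and 11.13 on the other arrays and 11.23 on Tg-Sirt1 2. In contrast 1456180_at read 9.28, 8.92 and 9.24 against 7.15, a difference of -2.0, and 1458624_at read 7.21, 6.58 and 7.10 against 5.90. The other 2 Rbm24 probe sets were lowest on Tg-Sirt1 2 as well, with differences of -0.40 and -0.18. Celf1, which favours fetal exon choices, read 11.20, 10.70 and 11.21 on the other arrays and 11.33 on Tg-Sirt1 2 at its brightest probe set. The remaining 4 probe sets were all below the mean of the other arrays there, most of all 1427413_a_at, at 7.37 against 8.76 to 8.96, a difference of -1.52.

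The RBFOX genes involved NTg 2 as well, as did low probe sets of some other members, such as Mbnl2 1436858_at and Hnrnpl 1424101_at. The brightest Rbfox2 probe set, 1418245_a_at, read 8.22, 6.71, 8.07 and 6.06. Tg-Sirt1 2 was the lowest, by 0.65, yet NTg 2 also differed from the near-identical pair, by -1.43. The other 3 Rbfox2 probe sets differed by -0.11 to 0.06, and 2 of them were designed from the same sequence record as the brightest. In Rbfox1, the heart and brain member, 1418314_a_at read 10.35, 9.38, 10.35 and 9.14. Its brightest probe set read 10.50, 9.60, 10.52 and 10.58. Both were low on NTg 2, but only the former was low on Tg-Sirt1 2.

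Of the 9 members with a probe set lower by the 0.5 rule, 5 had a brightest probe set that was higher on Tg-Sirt1 2: Mbnl2, Rbm24, Celf1, Hnrnpab and Srrm1. Hnrnpd and Hnrnpdl had one that was higher by the rule, and the remaining 28 members, with 80 probe sets, had none past it and differed by -0.89 to 0.78. For the 29 members with several probe sets, the difference at the brightest minus the mean difference of the others had a median of 0.03, with 18 above 0 (62.1%), against a median of 0.09 and 60.7% over all 9010 genes with several. The members' median was 0.105 without NTg 1, where all genes gave 0.105, and -0.008 without NTg 2, where all genes gave 0.079. It was 0.221 without the marked design classes (_s_at, _x_at and _a_at), where all genes gave 0.097, so its order against all genes is not settled. The gap was at least 0.5 in favour of the brightest in 6 of 29 (20.7%, against 14.8% of all) and at least 0.5 against the brightest in 4 (13.8%, against 4.58%). The 4 were Srrm2, Rbfox2, Hnrnpl and Son, whose brightest probe sets were already counted above as lower by the 0.5 rule. These shares were not tested.

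The lower probe sets were also counted by design class. The platform marks probe sets that match several transcripts of a gene, several genes or shared sequence with the endings _a_at, _s_at and _x_at. Of the 81 member probe sets without such a mark 9 were lower by the 0.5 rule, of the 27 ending in _a_at 3 were, and of the 15 ending in _s_at and the 12 ending in _x_at 0 were. Over all probe sets on the arrays the shares were 2.82% without a mark, 4.88% for _a_at, 2.87% for _s_at and 1.68% for _x_at. With shares this low and so few member probe sets, the counts of 0 do not set these classes apart. In all 23 sequence records served as the source of several member probe sets, 51 together. In 14 of the 23 every probe set differed in the same direction on Tg-Sirt1 2, and in 2, those of Hnrnpdl and Rbfox2, the differences ranged over more than 1 log2 unit. The positions of the probe sets along their transcripts were not analysed here.

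NTg 2 was the other array on which these genes stood apart. It gave the lowest value of the 4 arrays at the brightest probe set of 29 of 39 members (74.4%), against 37.9% of all genes, and Tg-Sirt1 2 gave the highest at 22 (56.4%), against 35.8%. Relative to the near-identical pair, NTg 2 was lower at 33 of the 39 brightest probe sets (84.6%, median -0.24), where all genes gave 50.3% and a median of -0.01. On Tg-Sirt1 2 the same measure was positive at 25 and negative at 14, with a median of 0.10 against 0.04 over all genes. At the members' other probe sets the median was -0.20 on NTg 2 and -0.08 on Tg-Sirt1 2. The range of this measure over the probe sets of a gene exceeded 1 log2 unit in 12 of the 29 members on Tg-Sirt1 2 (41.4%) and in 4 on NTg 2 (13.8%), against 10.3% and 5.27% of all genes with several probe sets, which have fewer of them. The median range went the other way, at 0.65 on Tg-Sirt1 2 and 0.70 on NTg 2 over the members, against 0.36 and 0.35 over all genes, so that the arrays differed in the members with wide ranges and not in the typical one. At the brightest probe sets, values below the pair were thus more frequent on NTg 2 (33 of 39) than on Tg-Sirt1 2 (14). At the other probe sets they were the majority on both, with 67 of 96 on NTg 2 and 56 on Tg-Sirt1 2. Within the 135 probe sets, values at least 0.5 below the pair were not more frequent on Tg-Sirt1 2 than on NTg 2. The most extreme ones were on Tg-Sirt1 2, down to -3.49 at Srrm2 1438688_at. On NTg 2 the lowest was -1.43, at Rbfox2 1418245_a_at.

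**Figure D3:**
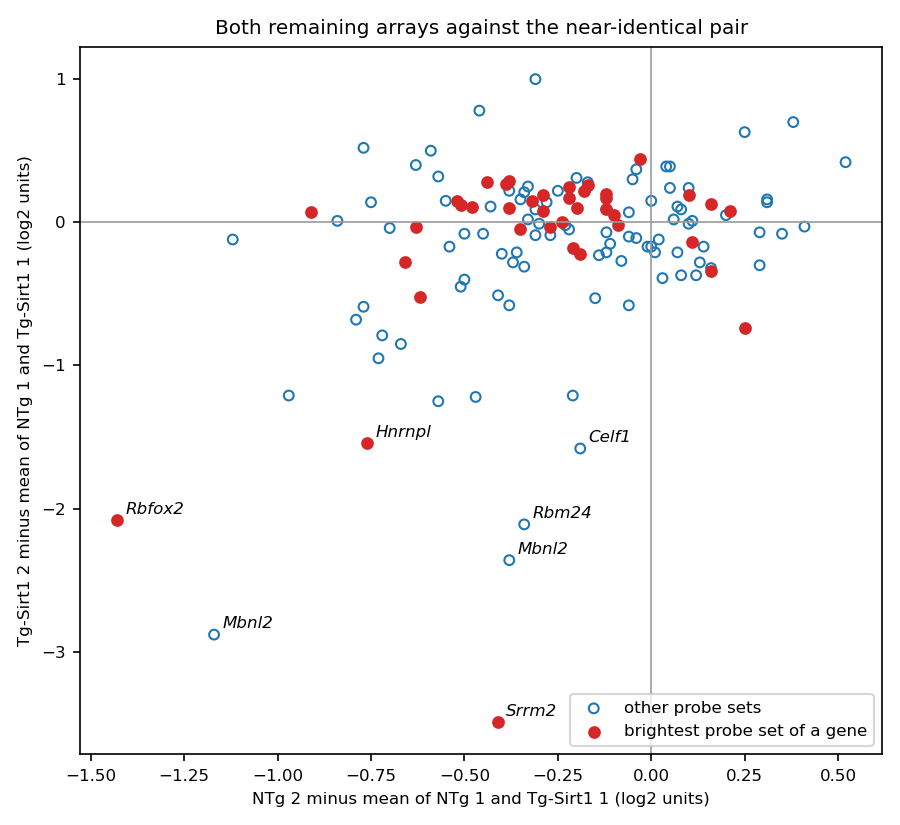
NTg 2 minus the mean of NTg 1 and Tg-Sirt1 1 (x axis, log2 units) against Tg-Sirt1 2 minus the same mean (y axis, log2 units); each point is 1 of 135 probe sets, filled red for the brightest of a gene and open blue for the others. The 2 axes share their reference arrays, so a slope is no evidence of a relation; 33 of 39 red points lie left of 0, and the points labelled with gene names lie at least 1.3 units below 0 on the y axis.

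The same contrast was read in 9 further lists, 8 of splicing genes (104 measured) and 1 of heart transcripts that are targets of splicing (18), together 122 genes. In limma 0 of their 412 probe sets passed an adjusted p of 0.05 and 0 had an unadjusted p under 0.05. Their brightest probe sets were higher on Tg-Sirt1 2 in 81 genes and lower in 41, with a median of 0.08. Over all genes 56.3% read higher and the median was 0.03. Of the 122, 2 were lower by the 0.5 rule, near the 1.37% of all genes, so that this count does not set the lists apart. The 2 were Rbm38, at 8.62 against 9.36 on each of the others, and the quaking gene Qk, at 10.72 against 11.29 to 11.85. Of the 290 other probe sets of the 122 genes, 47 were lower (16.2%, against 4.94% of all genes) and 9 higher, where all genes gave 1.93%. In the 8 lists of splicing genes alone these were 38 of 240 (15.8%) and 7.

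SR-related proteins and coactivators carried the most of these. Of 18 such genes 15 had a higher brightest probe set (median 0.18), yet 21 of their 75 other probe sets (28%) were lower by the rule, spread over 11 genes. Rbm25, a coactivator, read 8.94 on Tg-Sirt1 2 against 8.40 to 8.53 at its brightest probe set, and Srek1 read 8.53 against 7.97 to 8.12, while Acin1 read 7.73 against 8.12 to 8.22. Both Rbm25 and Srek1 also had at least 1 other probe set lower by the rule. Genes described in this and the next paragraph by other probe sets were named after their values were seen. Luc7l2, which acts with the U1 particle, read 10.39 on Tg-Sirt1 2 against 9.77 to 10.01 at its brightest probe set but 5.10 against 8.13 to 8.36 at 1436766_at. Rbm39 had 7 probe sets below the other arrays, such as 1438420_at at 6.78 against 8.41 to 8.61.

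Among speckle and paraspeckle transcripts, 7 of 24 other probe sets (29.2%) were lower, all in Malat1 and Sfpq. Malat1, a long nuclear RNA, read 10.58 on Tg-Sirt1 2 against 10.01 to 10.37 at its brightest probe set and 4.99 against 7.06 to 8.17 at 1418188_a_at. In the U1 and U2 group the median was 0.06 over 16 genes, and 2 of 33 other probe sets were lower. Sf3b1, the branch point factor, had 1 probe set at 7.06 against 9.37 to 9.79 and another at 7.99 against 7.14 to 7.47. Sm proteins (6 genes, median 0.24), the U5, tri-snRNP and Prp19 group (19 genes, 0.05) and the exon junction and decay factors (8 genes, 0.06) had 0 other probe sets lower by the rule. Of the Sm genes 5 were higher at the brightest probe set, while that of Snrpd3 differed by -0.97 without passing the rule. The SR protein kinases (9 genes, median 0.12) had 2 of 17, both in Srpk2. Prpf4b, a kinase of the tri-snRNP, read 8.72 against 8.17 to 8.36 at its brightest. The other tissue-biased regulators (21 genes, median -0.06) had 6 of 51. Heart transcripts known to be spliced by these regulators (18 genes, median 0.03) had 9 of 50 lower, among them Ttn 1444083_at at 6.84 against 9.02 to 10.61 and Tnnt2 1440424_at at 5.79 against 7.38 to 7.70.

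**Figure D4:**
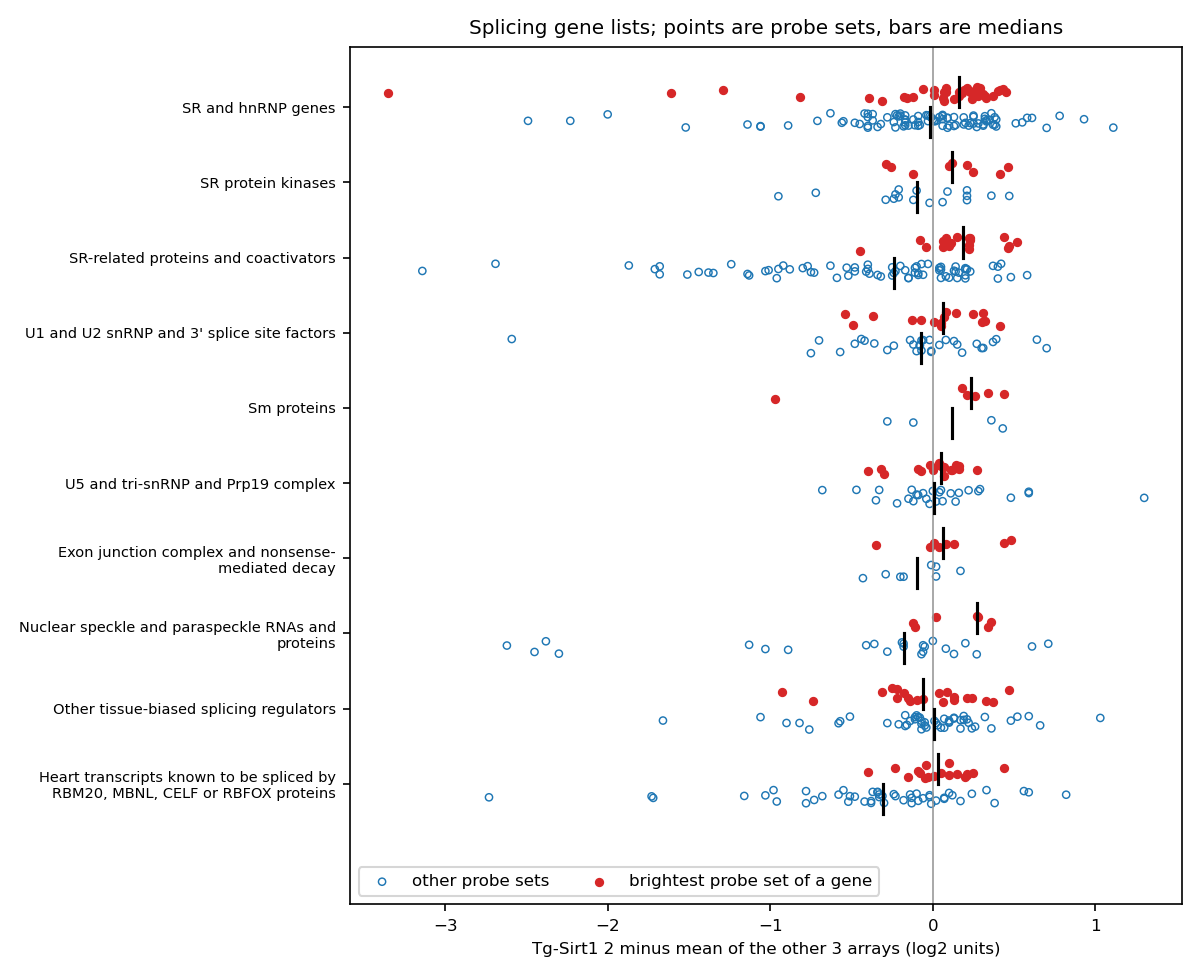
Tg-Sirt1 2 minus the mean of the other 3 arrays (x axis, log2 units) for the 39 SR and hnRNP genes and 9 further lists of splicing genes or targets (rows); filled red points are brightest probe sets, open blue points the other probe sets and black bars the medians of each. The blue points of the SR-related proteins and coactivators reach -3.14, while their red points have a median of 0.18.

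The RNA quality controls differed on the same arrays. The signal of the 3' control probe set minus that of the 5' one was 1.92 log2 units for Actb on Tg-Sirt1 2, against 1.22 to 1.44 on the other arrays, and 1.34 for Gapdh, against 0.18 to 0.69. A larger value means less 5' than 3' signal, and NTg 2 had the second largest for both genes. Their part in the low probe sets was not tested. The cardiomyocyte markers read at least 12.24 on every array (6 of 6 measured), as heart tissue should, and 5 of them were lower on Tg-Sirt1 2 with a median difference of -0.10. Of the 4 other probe sets of these markers 2 were lower by the 0.5 rule. All 5 endothelial markers were lower there (median -0.33, summed linear level 2938 against 3365 to 4442), and 4 of 5 macrophage markers were higher, by at most 0.31, while the fifth, C1qa, read 8.18 against 8.88 to 9.30 (summed linear level 3888 against 2998 to 3857). The 4 measured neutrophil markers had a summed level of 735.9 on NTg 2 against 339.5 to 408.6 elsewhere, and the 6 fibroblast markers had 11100 on NTg 2 against 15640 to 19870. Smooth muscle and pericyte (median -0.12), erythroid (0.11), adipocyte (-0.20) and skeletal muscle markers (-0.20) had smaller median differences on Tg-Sirt1 2 than the endothelial ones. The smooth muscle gene Tagln still read 9.13 against 10.11 to 10.16 and Myh11 read 8.29 against 8.74 to 8.83. As a sum, the smooth muscle and pericyte markers were lowest on NTg 2, at 11060, against 14810 on Tg-Sirt1 2 and 17540 and 17590 on the near-identical pair. Whether cell composition had a part in the values of the splicing genes was not tested, and in tissue RNA fewer cells of a type and less RNA per cell cannot be told apart.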

How the data were processed

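Heart RNA of 4 samples was hybridised to 4 arrays, 2 labelled NTg and 2 labelled Tg-Sirt1. The values the authors deposited are on the log2 scale. Per the submitters' processing notes they come from RMA in Affymetrix Expression Console (no version given). RMA subtracts background, forces the arrays to one distribution and combines the probes of a probe set, which removes global shifts and shrinks differences of dim probe sets. Precision is limited by how few arrays there are. Of 45101 probe sets, 64 controls were set aside; 34945 of the rest had 1 symbol (platform annotation). The Entrez identifiers of all 39 members matched RefSeq, and 0 symbols changed.

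Labels were compared with limma 3.58.1 (R 4.3.3; lmFit, eBayes; 2-sided, Benjamini-Hochberg over 45037 probe sets, threshold 0.05), first checked on simulated data. The residual degrees of freedom were 2. An exact permutation test of 2 against 2 cannot go below 0.333. P-values cover the spread between these samples, which may be technical. Members, lists and the contrast of Tg-Sirt1 2 with the other arrays were chosen with earlier results of these data known. Named were members with a probe set at least 0.5 beyond all other arrays, those with probe sets beyond them in both directions, the 10 single genes, Srsf1, Srsf2, Srsf3, Hnrnpa1 and Hnrnpu, and up to 3 genes of other lists by distance. Further genes were named after their values were seen.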

Additional observations from a re-analysis of the deposited data

How the results depend on the processing

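No alternative called a member between the labels in limma: the count was 0 in all 14, including the replicate block (0 of 135, lowest adjusted p 0.931), each array left out (0 to 0) and the near-identical pair counted once under either label. The lowest adjusted p among members ran from 0.288 to 0.999. Deviations of same-numbered arrays correlated at 0.293, which 2 pairs cannot turn into evidence of pairing. The median of the brightest probe sets ran from 0.09 to 0.20 and that of the others from -0.077 to 0.025 (centred arrays), which includes both signs. The median gap within genes was 0.22 without _s_at, _x_at and _a_at probe sets (22 genes). With each array other than Tg-Sirt1 2 left out it ran from -0.008 (without NTg 2) to 0.105. The cause was not tested. Brightest probe sets lower by the rule numbered 4 to 5 with each of these arrays left out. They numbered 3 without the marked classes and 1 at a distance of 1 in place of 0.5. Those higher numbered 1 at a distance of 0.3 (Srsf1) and 1 without the marked classes (Hnrnpd). The 14 probe sets past the rule kept their side in 135 of 135 values under other settings and stayed past it in 133. Most settings could not shrink a distance, since choosing the brightest anew, filtering probe sets or reducing the reference leaves it equal or larger. Only second quantile normalization, centring and an offset of 16 on the linear scale could. Both losses fell there, at Srrm1 1420935_a_at, with -0.44 on centred arrays and -0.48 with the offset. Signal over background is not given here, so dim probe sets such as that of Srsf12 may carry little signal.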
